A study of Mus musculus with 12 samples.

Results

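The genes that lengthen and desaturate fatty acids were followed in mouse embryonic stem (ES) cells of line K3 that differ in Esrrb, the gene of the orphan nuclear receptor ERRb. The set was 10 genes: the elongases Elovl1 to Elovl7, the stearoyl-CoA desaturases Scd1 and Scd2, and the desaturase Fads2. A gene was measured by a probe set of the array annotated to it alone, and 9 of the 10 had one, 7 elongases and 2 desaturases, of 22180 genes measured in this way. Each of the 9 had a single such probe set. The probe set listed for Scd2 is also listed for a microRNA gene, so Scd2 has no value here. The set was chosen with results of these arrays known, because Elovl7 was among the genes that were lower in KO/ERRb-wt than in KO/mock cells. For the members, that comparison is therefore a description, and no p-value is given for it. Elovl7 is described without a p-value in the other comparisons of groups as well, since each of them uses arrays that served to choose it.

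There were 3 groups of 4 arrays. KO/ERRb-wt cells carried a knockout of the ERRb gene and a lentivirus that expresses ERRb (clones 12-1 and 12-3). KO/mock cells carried the knockout and are labelled mock (clones 8-3 and 8-4), and WT/mock cells had no knockout and are labelled mock as well (clones 5-2 and 5-5). Each clone gave 2 arrays, called biological replicates in the labels, so a group rests on 2 clones and anything else that sets those clones apart cannot be told apart from the genotype. The sources used here state neither what the mock treatment was nor where Esrrb was disrupted nor which promoter drives the virus. All cells were grown in serum-free N2B27 medium with LIF and with CH99021 and PD0325901, inhibitors of GSK3 and of MEK, and then spent 3 days in N2B27 with both inhibitors and doxycycline.

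As background, fatty acids are made by fatty acid synthase mostly as palmitate and are then extended at the endoplasmic reticulum. An elongase of the Elovl family condenses the acyl-CoA with malonyl-CoA, which is the rate-limiting step, and a ketoreductase (Hsd17b12), a dehydratase (Hacd1 to Hacd4) and an enoyl reductase (Tecr) complete each round. Elongases differ in substrate: Elovl6 turns palmitate into stearate, Elovl1, Elovl3 and Elovl7 extend saturated and monounsaturated chains, Elovl2 and Elovl5 extend polyunsaturated chains, and Elovl4 makes the longest chains, known from retina and skin. Stearoyl-CoA desaturases such as Scd1 turn stearate into oleate, and Fads2 introduces the first new double bond on the way from dietary polyunsaturated fatty acids to their long derivatives. Many genes of these steps are targets of the sterol-sensing transcription factors SREBP, whose escort protein is Scap and whose retention protein is Insig1.

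Values are the deposited log2 expression values, and array medians lay between 5.00 and 5.07. On an array a level cannot be compared between probe sets, so each gene was compared only with itself. A gene was called where limma's moderated test gave an adjusted p under 0.05 over all 41345 probe sets. Marker lists were likewise compared between groups, each list only with itself. The mean of 9 ES cell marker genes lay between 9.86 and 9.92 on KO/ERRb-wt arrays, between 9.96 and 10.02 on KO/mock arrays and between 10.04 and 10.12 on WT/mock arrays. The same mean over 8 feeder fibroblast markers was 4.57 to 4.67, 4.46 to 4.59 and 4.50 to 4.67 in that order of groups. Over 10 primitive endoderm markers it was 5.93 to 6.01, 5.84 to 5.94 and 5.84 to 5.96, over 6 neuroectoderm markers 5.16 to 5.42, 5.18 to 5.45 and 5.31 to 5.56, and over 7 trophoblast markers 5.93 to 6.15, 5.89 to 6.02 and 5.64 to 5.88. Of the 9 ES cell markers, 4 were called lower in KO/ERRb-wt than in WT/mock cells (Nanog, Utf1, Fgf4 and Klf4), 3 lower in KO/ERRb-wt than in KO/mock cells (Nanog, Utf1 and Klf4) and 2 lower in KO/mock than in WT/mock cells (Fgf4 and Klf4). The 5 not called in KO/ERRb-wt against WT/mock cells did not go one way. Pou5f1 differed by 0.22, with its arrays wholly above, Zfp42 by 0.04, Dppa5a (mean level under 6) by 0.09, Sox2 by -0.07 and Tdgf1 by -0.01. Of the other lists, KO/ERRb-wt cells had Thy1, Cubn and Cdx2 called higher and Gata4 and Sox1 lower against WT/mock, and Dab2 and Sparc higher and Lama1 lower against KO/mock. KO/mock cells had Lama1 higher and Gata4 and Sox1 lower against WT/mock. The mean levels of Thy1, Cubn, Sox1 and Dab2 lay under 6. Of all genes, 20.8% were called in KO/ERRb-wt against WT/mock, 4.4% in KO/ERRb-wt against KO/mock and 5.58% in KO/mock against WT/mock. The marker calls were not followed under the alternative settings used below. Gata4 lies on chromosome 14, whose genes had lower medians against WT/mock, -0.41 in KO/mock and -0.48 in KO/ERRb-wt cells. Gata4 differed by -0.51 and -0.56 in that order. The ES cell mean, though not every marker in it, moved in the same order as Elovl7 and Scd1 below, and its part in their differences was not tested.

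Esrrb itself did not follow the labels. Its probe set read 6.99, 6.76, 6.50 and 6.68 on KO/ERRb-wt arrays, 7.48, 8.00, 7.74 and 7.41 on KO/mock arrays, and 7.38, 7.38, 7.39 and 7.38 on WT/mock arrays. The arrays labelled as re-expressing ERRb were the lowest and those labelled knockout the highest, with no overlap between groups. The log2 difference was -0.65 ± 0.13 (SE, n = 4 arrays each; limma, adjusted p = 0.00557) between KO/ERRb-wt and WT/mock. Between KO/mock and WT/mock it was 0.28 ± 0.13 (limma, adjusted p = 0.324). Without clone 12-3 the first of these gave an adjusted p of 0.0591. The probe set may lie outside the lesion or outside the transgene, so groups are called by their labels, and each direction below is one between labelled arrays.

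Elovl7 was the member with the widest range. It read 5.71, 5.84, 5.86 and 5.75 on KO/ERRb-wt arrays, 7.31, 7.26, 6.95 and 6.83 on KO/mock arrays, and 7.86, 7.63, 7.65 and 7.49 on WT/mock arrays. The 3 groups did not overlap, KO/ERRb-wt arrays were the lowest and WT/mock arrays the highest, and within KO/mock both arrays of clone 8-4 lay below both of clone 8-3. Group means were 5.79 ± 0.07 in KO/ERRb-wt, 7.09 ± 0.23 in KO/mock and 7.655 ± 0.15 in WT/mock cells (SD, n = 4 each). All 4 KO/ERRb-wt arrays thus read under 6, where an array without detection calls cannot separate signal from background. The Elovl7 ratios of KO/ERRb-wt cells given below carry that limit.

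**Figure D1:**
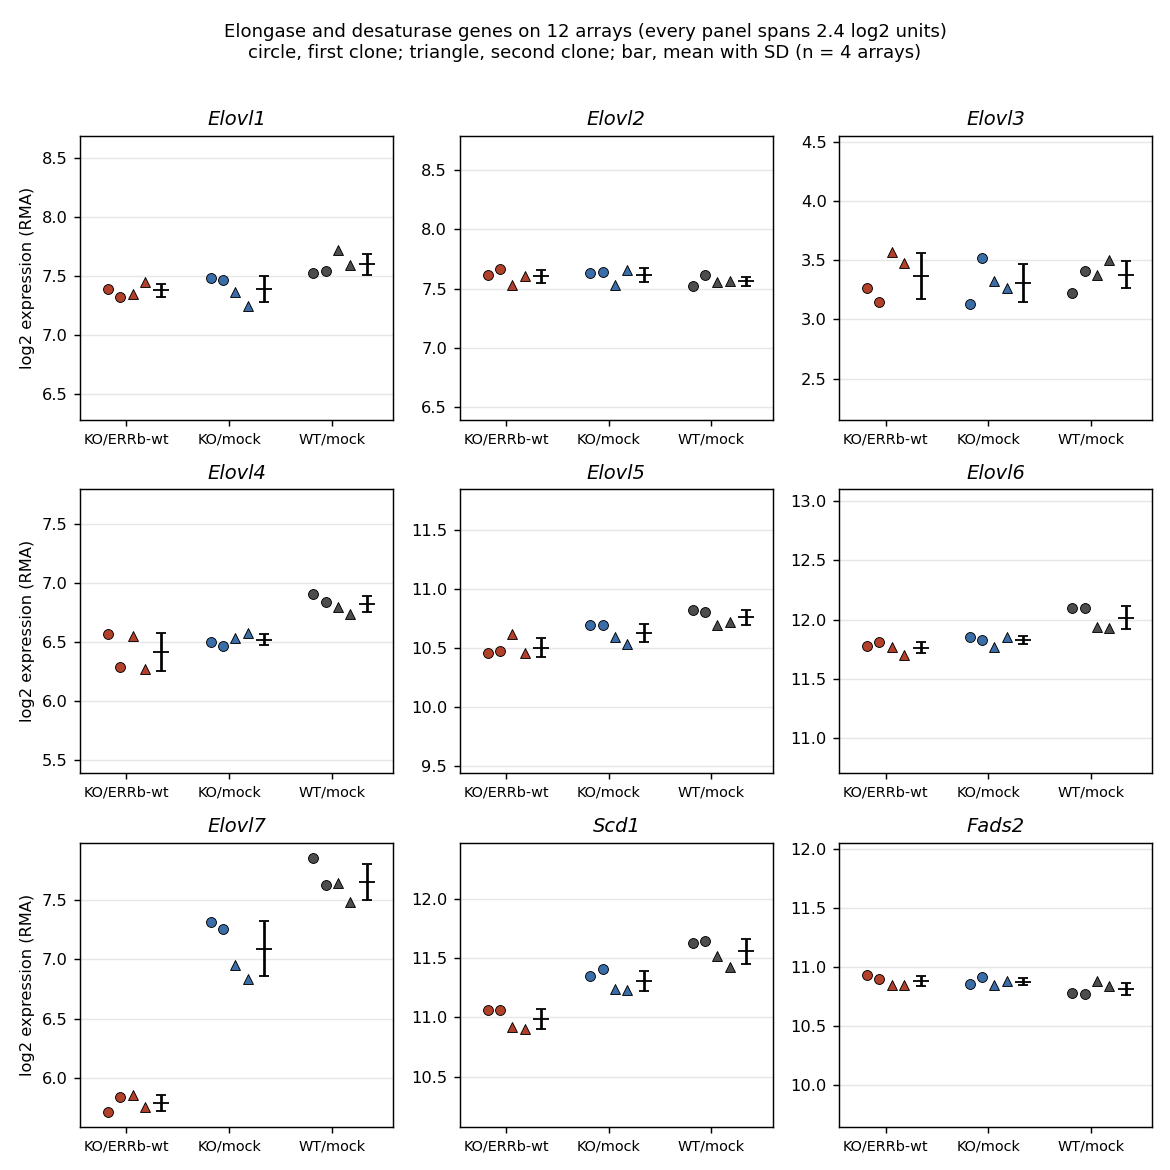
Log2 expression (RMA, vertical axis) of the 9 measured members on each of 12 arrays, by group along the horizontal axis; circles are the first clone of a group (12-1, 8-3, 5-2), triangles the second (12-3, 8-4, 5-5), and bars the group mean with SD (n = 4 arrays). Every panel spans the same log2 range, so panels show that Elovl7 spread from 5.71 to 7.86 and Scd1 from 10.90 to 11.65, while Elovl2 and Fads2 spread from 7.52 to 7.66 and from 10.77 to 10.93.

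The stretches before the annotated starts of Elovl7, Elovl6 and Elovl5 are shown because these genes had the lower levels in KO/ERRb-wt cells described below and because ERRb and SREBP act through short promoter motifs. They are examples: Elovl4, also lower there (-0.40 against WT/mock), was searched but is not printed, and Scd1 had no window. Sequences are from RefSeq (GRCm38.p6), 5′ to 3′ on the strand of the gene, and capitals mark the nuclear receptor hexamer AGGTCA, the NF-Y box CCAAT and the GC box GGGCGG on either strand.
Elovl7, chr13:108214254-108214403, + strand: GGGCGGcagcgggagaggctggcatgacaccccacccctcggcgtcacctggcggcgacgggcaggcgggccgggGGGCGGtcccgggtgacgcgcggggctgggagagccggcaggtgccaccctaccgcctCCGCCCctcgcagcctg
Elovl6, chr3:129532186-129532335, + strand: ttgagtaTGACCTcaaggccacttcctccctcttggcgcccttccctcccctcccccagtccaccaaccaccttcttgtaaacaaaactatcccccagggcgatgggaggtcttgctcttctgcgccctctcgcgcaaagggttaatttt
Elovl5, chr9:77917215-77917364, + strand: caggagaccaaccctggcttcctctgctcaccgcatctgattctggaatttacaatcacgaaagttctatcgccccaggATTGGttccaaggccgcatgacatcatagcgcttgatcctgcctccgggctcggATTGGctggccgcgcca

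Windows of 300 bases, 250 before and 50 after a start, were searched on both strands. Of the 10 members 7 had a window, and the 2 starts listed for Elovl1 and for Elovl2 made 9 windows, set against 32851 windows of all genes. The full ERR element TNAAGGTCA was in 0 of the 9 and in 1.28% of all windows, and the SREBP site TCACNCCAC was in 0 and 1.24%. The hexamer AGGTCA, which the ERR element contains, was found in 2 windows, one each of Elovl6 and Elovl1, against 16.3% of all windows. In Elovl6 it begins at position -193 from the start. The NF-Y box was in 3 of the 9 and 37.4% of all, with 2 copies in Elovl5, and the GC box in 6 of the 9 and 35.7% of all, with 3 copies in Elovl7. A match is a string of letters and was not tested for binding; a missing match says only that the letters are not in this window.

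KO/mock and WT/mock cells address, if the labels hold, what loss of ERRb changed. Elovl7 differed by -0.57 ± 0.11 on the log2 scale (SE, n = 4 arrays each), so that KO/mock cells had 0.676 of the WT/mock level. This is a description, because the KO/mock arrays served in the choice of Elovl7. The difference was -0.50 without WT/mock 5-2 replicate 1, -0.52 without KO/mock 8-4 replicate 1, -0.48 without clone 5-2 and -0.37 without clone 8-4, and Elovl7 was not called under any of these removals, on clone averages (2 clones against 2) or with only the 2 groups in the fit. Of the 8 other members 0 were called (limma; 4 at an unadjusted p under 0.05), against a background of 5.58% of all genes called, 2.11% higher and 3.47% lower (3.87% of all probe sets).

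Of the other elongases of saturated chains, Elovl6 read 11.85, 11.83, 11.77 and 11.85 on KO/mock arrays and 12.10, 12.10, 11.94 and 11.93 on WT/mock arrays. The groups did not overlap, and the log2 difference was -0.19 ± 0.06 (SE; limma, adjusted p = 0.12). Elovl1, which supplies very long chains for sphingolipids, read 7.49, 7.46, 7.37 and 7.25 on KO/mock arrays and 7.53, 7.54, 7.72 and 7.60 on WT/mock arrays. These groups did not overlap either, and the difference was -0.21 ± 0.07 (adjusted p = 0.145). Elovl3, best known from brown fat and skin, had a level under 6 on every array, 3.13 to 3.52 in KO/mock and 3.22 to 3.502 in WT/mock cells, where an array without detection calls cannot separate signal from background.

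Scd1, which makes oleate, read 11.35, 11.41, 11.24 and 11.23 on KO/mock arrays and 11.63, 11.65, 11.52 and 11.43 on WT/mock arrays. All KO/mock arrays were lower than all WT/mock arrays, and the log2 difference was -0.25 ± 0.07 (SE; limma, adjusted p = 0.085), which did not pass. Elovl4 read 6.50, 6.47, 6.54 and 6.58 on KO/mock arrays and 6.91, 6.84, 6.79 and 6.74 on WT/mock arrays. The groups were again apart, at -0.30 ± 0.08 (adjusted p = 0.0637), and with only the 2 groups in the fit Elovl4 was called (0.0402). In all, 5 of the 9 members had KO/mock arrays wholly below WT/mock arrays, where 7.48% of all genes did, and 0 had them wholly above, where 8.44% of all genes did (15.9% for both directions). The 5 include Elovl7, whose choice used the KO/mock arrays. The others were Elovl1, Elovl4, Elovl6 and Scd1. With dim probe sets (mean level under 6) left out of the fit, Elovl4, Elovl6 and Scd1 were called lower besides Elovl7, 4 of the 8 members in that fit. The background rose with them: 15.6% of the 14610 probe sets left were called.

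The members of the polyunsaturated route had the smallest differences apart from Elovl3. Elovl5 lay between 10.53 and 10.69 on KO/mock arrays and between 10.69 and 10.82 on WT/mock arrays, with an overlap at the border and a log2 difference of -0.13 ± 0.06 (SE; limma, adjusted p = 0.35). Elovl2 lay between 7.53 and 7.66 and between 7.52 and 7.61, and Fads2 between 10.85 and 10.92 and between 10.77 and 10.88. The 95% intervals of their differences ran from -0.07 to 0.17 for Elovl2 and from -0.05 to 0.17 for Fads2, so larger differences lie outside the intervals. The median over the 9 members was -0.19, against 0.00425 over all genes.

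KO/ERRb-wt and WT/mock cells differ by the knockout together with the virus that expresses ERRb, if the labels hold. Scd1 fell by 0.57 ± 0.07 on the log2 scale in KO/ERRb-wt cells (SE, n = 4 arrays each; limma, adjusted p = 0.000314), to 0.672 of its WT/mock level. It read 11.06, 11.06, 10.92 and 10.90 on KO/ERRb-wt arrays, against 11.63, 11.65, 11.52 and 11.43 on WT/mock arrays, with no overlap. Its call was kept under each of 27 alternative settings, with adjusted p between 3.26e-05 and 0.0382 and differences between -0.66 and -0.49. Elovl4, Elovl5 and Elovl6 fell too, and Elovl7 differed by -1.86 ± 0.11, to 0.275 of its WT/mock level, which is given as a description because the choice of Elovl7 used the KO/ERRb-wt arrays.

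Elovl4 read 6.57, 6.29, 6.55 and 6.27 on KO/ERRb-wt arrays and 6.91, 6.84, 6.79 and 6.74 on WT/mock arrays. In both KO/ERRb-wt clones replicate 1 was the higher array, by 0.28 in clone 12-1 and 0.27 in clone 12-3. With the replicate block Elovl4 was still called. The groups were apart, at -0.40 ± 0.08 (SE; limma, adjusted p = 0.0052), and without clone 5-2 the difference was -0.35 (adjusted p = 0.0615). Elovl6 read 11.78, 11.81, 11.77 and 11.70 on KO/ERRb-wt arrays and 12.10, 12.10, 11.94 and 11.93 on WT/mock arrays. The log2 difference was -0.25 ± 0.06 (adjusted p = 0.0136) with no overlap, which did not pass on clone averages (adjusted p = 0.15), without clone 5-2 (-0.17, 0.141) or without clone 12-3 (-0.22, 0.104). Elovl5 read 10.46, 10.47, 10.62 and 10.46 on KO/ERRb-wt arrays and 10.82, 10.80, 10.69 and 10.72 on WT/mock arrays, also apart. Its difference of -0.26 ± 0.06 (adjusted p = 0.0176) did not pass on clone averages (0.149), without WT/mock 5-2 replicate 1 (-0.24, 0.0536), without clone 5-2 (-0.20, 0.155) or without clone 12-1 (-0.22, 0.116).

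Elovl1 lay just short of the threshold, at 7.39, 7.32, 7.35 and 7.45 on KO/ERRb-wt arrays and 7.53, 7.54, 7.72 and 7.60 on WT/mock arrays, with no overlap and a difference of -0.22 ± 0.07 (SE; limma, adjusted p = 0.0533). It passed under 8 of 27 alternative settings, for example with dim probe sets left out (0.0205), where 40.9% of the probe sets in the fit were called. Without KO/mock 8-4 replicate 2, an array outside this comparison, its adjusted p was 0.0406. Elovl2, Elovl3 and Fads2 did not pass: their log2 differences were 0.04, -0.01 and 0.065, and the 95% intervals ran from -0.08 to 0.16, from -0.25 to 0.23 and from -0.05 to 0.18. Of the 9 members, 5 were called lower and none higher, where 20.8% of all genes were called, 8.82% higher and 12% lower (15.6% of all probe sets). Of the 8 members other than Elovl7, 4 were called. KO/ERRb-wt arrays lay wholly below WT/mock arrays for 6 of the 9, against 15% of all genes, and wholly above for 0, against 13.5% (28.5% for both directions). The 6 include Elovl7, which was chosen for its low level on KO/ERRb-wt arrays. The others were Elovl1, Elovl4, Elovl5, Elovl6 and Scd1. The count of 5 called members dropped to 3 on clone averages (Elovl4, Elovl7 and Scd1) and to 2 without clone 5-2 (Elovl7 and Scd1).

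**Figure D2:**
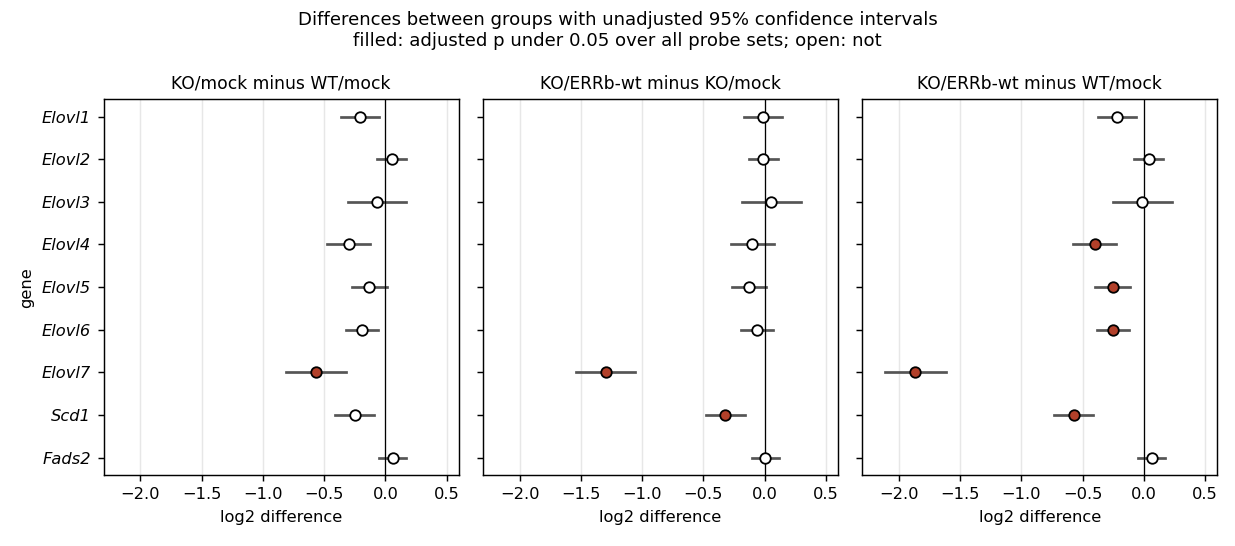
Log2 difference (horizontal axis) of each measured member (rows) in the 3 comparisons, with unadjusted 95% confidence intervals; filled points had an adjusted p under 0.05 over all probe sets. Elovl7 alone is filled in all 3 panels, 5 genes are filled for KO/ERRb-wt minus WT/mock, and Elovl2, Elovl3 and Fads2 have intervals that include 0. Fills in the middle panel, and that of Elovl7 in every panel, describe values that served to choose the set.

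KO/ERRb-wt and KO/mock cells differ by the virus that expresses ERRb, if the labels hold. Whether mock cells carry another virus is not stated. Elovl7 differed by -1.30 ± 0.11 on the log2 scale (SE), so that KO/ERRb-wt cells had 0.407 of the KO/mock level. It ranked 6 from the lowest among 22180 genes. Across 27 alternative settings the value stayed between -1.49 and -1.10. Scd1 differed by -0.32 ± 0.07, with KO/ERRb-wt arrays at 11.06, 11.06, 10.92 and 10.90 all below KO/mock arrays at 11.35, 11.41, 11.24 and 11.23. These were the 2 of 9 members called, both lower, where 4.4% of all genes were called, 1.24% higher and 3.17% lower (3.21% of all probe sets). Groups did not overlap for these 2 members, where 17% of all genes were apart, 9.69% lower and 7.31% higher. Since the set was chosen by this comparison, nothing is read from either count. Whether a member was called here is a description and no test of the set. Scd1 was not called under 14 of the 27 alternatives: on clone averages, with the replicate block, with only the compared groups, without clone 8-3, 8-4, 12-1 or 12-3, and without any one of 7 arrays (both of KO/mock 8-3, KO/mock 8-4 replicate 2, both of KO/ERRb-wt 12-3, WT/mock 5-2 replicate 1 and WT/mock 5-5 replicate 1). Elovl7 was not called on clone averages, so no member was called there. The differences of the other 7 members lay between -0.13 for Elovl5 and 0.05 for Elovl3, and the arrays of the groups overlapped for all 7.

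All 3 comparisons share arrays, so they are not independent, and the differences against WT/mock contain those between the other groups. Measured group means showed an order: for 6 of the 9 members (Elovl1, Elovl4, Elovl5, Elovl6, Elovl7 and Scd1) they ran lowest in KO/ERRb-wt, then KO/mock, and highest in WT/mock cells, an order that 22% of all genes had. Elovl7 was chosen for its low level in KO/ERRb-wt cells, and for Elovl1 the lower means were 7.38 and 7.39, so little is read from the count. For Elovl1, Elovl4, Elovl5 and Elovl6 the lower neighbours in that order, KO/ERRb-wt and KO/mock, did not differ beyond the spread of their arrays. The arrays of KO/ERRb-wt cells, which are labelled as carrying ERRb again, were thus farther from WT/mock than those of KO/mock cells for Elovl7 and Scd1. Esrrb was lowest on the same arrays.

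Of 27 differences between the 2 clones of a label, 0 were called (limma with the 6 clones as groups; 4 had an unadjusted p under 0.05), where 0% to 0.00902% of all genes were called. Elovl7 in KO/mock cells had the widest gap of the 27, -0.39 ± 0.11 for clone 8-4 minus clone 8-3 (SE, n = 2 arrays each; limma, adjusted p = 0.553). Scd1 differed by -0.15, -0.14 and -0.17 between the clones of KO/ERRb-wt, KO/mock and WT/mock cells. With 2 arrays a clone, the gap of Elovl7 is about as large as what sets KO/mock apart from WT/mock once clone 8-4 is left out (-0.37).

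The partner enzymes of the elongation cycle, which act after every elongase, were not called in any comparison. Of Hsd17b12, Hacd1 to Hacd4 and Tecr, 0 of 6 passed in KO/mock against WT/mock cells (limma; 0 at an unadjusted p under 0.05). The count was also 0 in KO/ERRb-wt cells, both against KO/mock (1 unadjusted) and against WT/mock (3 unadjusted). Their median differences were -0.03, -0.07 and -0.15 in that order. Of all genes, 5.58%, 4.4% and 20.8% were called in these comparisons. Among 11 other desaturases and electron donors, none was called in the first comparison (3 unadjusted) or the second (2 unadjusted). Against WT/mock, KO/ERRb-wt cells had more Fads3, a relative of Fads2, at 0.35 ± 0.07 (SE; limma, adjusted p = 0.00376), and less Cyb5r1, a cytochrome b5 reductase, at -0.26 ± 0.07 (adjusted p = 0.0337). Fads3 did not pass on clone averages (adjusted p = 0.08), and its level lay under 6. The Cyb5r1 call ended without any one of 6 arrays, both of WT/mock 5-2, both of KO/ERRb-wt 12-1, WT/mock 5-5 replicate 1 and KO/ERRb-wt 12-3 replicate 2, with adjusted p up to 0.0898. That call also ended on clone averages and without clone 5-2, 5-5 or 12-1 (limma, adjusted p up to 0.219 over all alternatives).

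Upstream, fatty acid synthesis genes did not move one way. In KO/ERRb-wt against WT/mock cells 1 of 10 was called higher and 3 lower, where 8.82% of all genes were called higher and 12% lower. Fasn, the fatty acid synthase that makes palmitate, read 11.07 to 11.34 on KO/ERRb-wt arrays and 10.72 to 10.88 on WT/mock arrays, and rose by 0.405 ± 0.075 (SE; limma, adjusted p = 0.00326). Acacb, an acetyl-CoA carboxylase, fell by 0.49 ± 0.09 (adjusted p = 0.00391), and Acss2, which makes acetyl-CoA from acetate, fell by 0.50 ± 0.15 (0.0398). Oxsm, a synthase of the mitochondrial pathway, differed by -0.585 ± 0.09 (limma, adjusted p = 0.00103) and passed under every alternative run. Its level lay under 6 on every array. Fasn and Acacb did not pass on clone averages (0.0702 and 0.074), nor did Acacb without clone 5-2. The Acss2 call ended with the replicate block, with quantile normalization and with array weights, and without any one of 6 arrays: both of WT/mock 5-2, WT/mock 5-5 replicate 2, KO/ERRb-wt 12-1 replicate 1 and both of KO/ERRb-wt 12-3 (adjusted p up to 0.107). That call also ended on clone averages and without clone 5-2, 5-5 or 12-3 (limma, adjusted p up to 0.273 over all alternatives). In KO/mock against WT/mock cells, Oxsm was the 1 of 10 called, at -0.465 ± 0.09 (adjusted p = 0.0137), and it did not pass on clone averages (0.195) or without clone 5-2, 8-3 or 8-4. Oxsm lies on chromosome 14, whose genes had a median difference of -0.41 in KO/mock and -0.48 in KO/ERRb-wt cells against WT/mock, where genes of other chromosomes had 0.03 and -0.01; no member lies on that chromosome. KO/ERRb-wt against KO/mock gave 0 of 10 (limma; 2 at an unadjusted p under 0.05).

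Among 16 measured regulators of fatty acid synthesis, 3 were called higher and 4 lower in KO/ERRb-wt than in WT/mock cells. Of all genes, 8.82% were called higher and 12% lower there. Insig1, which holds SREBP at the endoplasmic reticulum and is itself an SREBP target, read 9.79 to 9.93 on KO/ERRb-wt arrays, 10.12 to 10.14 on KO/mock arrays and 10.58 to 10.65 on WT/mock arrays. The 3 groups did not overlap. Insig1 fell by 0.75 ± 0.05 in KO/ERRb-wt cells (SE; limma, adjusted p = 8.69e-06) and by 0.48 ± 0.05 in KO/mock cells (adjusted p = 0.000508), both against WT/mock. The second of these did not pass on clone averages (adjusted p = 0.113), and the first passed under every alternative run, as did the calls of Prkaa2 and Scap against WT/mock. Prkaa2, a catalytic subunit of the energy sensor AMPK, fell by 1.08 ± 0.10 in KO/ERRb-wt cells against WT/mock (adjusted p = 4.23e-05). Scap read 8.59 to 8.61 on KO/ERRb-wt arrays and 8.20 to 8.25 on WT/mock arrays and rose by 0.37 ± 0.05 (adjusted p = 0.000369). Mlx, the partner of the carbohydrate-responsive factor encoded by Mlxipl, rose by 0.26 ± 0.05 (adjusted p = 0.00643), which did not pass on clone averages (0.0944) or without clone 5-2. Mlxipl itself fell by 0.52 ± 0.09 in KO/mock cells (adjusted p = 0.00572), which did not pass on clone averages (0.191) or without clone 5-2 or 8-4. The mean level of Mlxipl lay under 6.

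The remaining calls among these regulators in KO/ERRb-wt against WT/mock cells, named after their values were seen, were less stable. Mbtps1, a protease that activates SREBP, rose by 0.24 ± 0.06 (SE; limma, adjusted p = 0.0137), which did not pass on clone averages (0.121) or without clone 5-2 or 12-3. Mbtps2, the second SREBP protease, differed by -0.185 ± 0.05 (limma, adjusted p = 0.0342), and its call ended under 13 of 27 alternatives, among them the removal of any one of 7 arrays (both of KO/ERRb-wt 12-1, both of KO/ERRb-wt 12-3, both of WT/mock 5-2 and WT/mock 5-5 replicate 1; up to 0.0931). Mlxipl differed by -0.33 ± 0.09 (limma, adjusted p = 0.0233), and its call ended under 8 of 26 alternatives, among them the removal of any one of 4 arrays (KO/ERRb-wt 12-1 replicate 1, KO/ERRb-wt 12-3 replicate 2 and both of WT/mock 5-2; up to 0.0664). Leaving out any one of those 4 arrays ended the calls of Mbtps2 and Mlxipl together, 2 of the 4 lower ones. Both calls also ended on clone averages (limma, adjusted p up to 0.211 for Mbtps2 and 0.214 for Mlxipl over all alternatives).

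Against KO/mock, KO/ERRb-wt cells had more Scap, at 0.26 ± 0.05 (SE; limma, adjusted p = 0.0168), less Insig1, at -0.27 ± 0.05 (0.021), and less Prkaa2, at -0.80 ± 0.10 (0.00252). None of these passed on clone averages, with adjusted p of up to 0.251, or without clone 8-3. Leaving out clone 12-1 also ended the calls of Scap and Insig1, clone 12-3 that of Scap and clone 8-4 that of Insig1. The Scap call ended without KO/mock 8-3 replicate 1 (adjusted p = 0.0522), and the Insig1 call without either array of KO/mock 8-3, KO/mock 8-4 replicate 2 or KO/ERRb-wt 12-1 replicate 1 (up to 0.0588).

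Cholesterol synthesis genes, the other main targets of SREBP, were called only in the direction of lower levels when KO/ERRb-wt or KO/mock cells were set against WT/mock cells. Of 14 measured genes, 6 were called lower in KO/ERRb-wt cells and 3 in KO/mock cells, with median differences of -0.17 and -0.15 against 0.03 and 0.00425 over all genes. The shares of all genes called lower were 12% in KO/ERRb-wt and 3.47% in KO/mock cells, and called higher 8.82% and 2.11%. In KO/ERRb-wt cells Cyp51, a sterol demethylase, fell by 0.67 ± 0.07 (SE; limma, adjusted p = 0.000103), Dhcr7, a sterol reductase, by 0.48 ± 0.075 (0.0011), Msmo1 by 0.39 ± 0.07 (0.00342) and the squalene synthase gene Fdft1, on chromosome 14, by 0.30 ± 0.05 (0.00296). The calls of Cyp51 and Dhcr7 were kept under every alternative run, and those of Msmo1 and Fdft1 did not pass on clone averages (0.0703 and 0.0732). The other lower calls, named after their values were seen, were Pmvk at -0.33 and Nsdhl at -0.39 (limma, adjusted p = 0.0046 and 0.00706). Both ended on clone averages (0.0801 and 0.0798) and without clone 5-2. In KO/mock cells Fdft1 fell by 0.37 ± 0.05 (adjusted p = 0.00271), Pmvk by 0.33 ± 0.065 (0.0164) and Msmo1 by 0.36 ± 0.07 (0.0176), and on clone averages none passed (0.146, 0.23 and 0.23). In both groups Fdft1 fell by less than the median gene of chromosome 14, which was at -0.48 in KO/ERRb-wt and -0.41 in KO/mock cells. The Pmvk and Msmo1 calls ended without either array of WT/mock 5-2 or without KO/mock 8-4 replicate 1, and that of Msmo1 without KO/mock 8-4 replicate 2 as well (adjusted p up to 0.0537 and 0.057); leaving out clone 5-2 or 8-4 ended both. Against KO/mock, where 1.24% of all genes were called higher and 3.17% lower, KO/ERRb-wt cells had 1 gene called in each direction. Mvd was higher at 0.30 and Cyp51 lower at -0.39 (limma, adjusted p = 0.0295 and 0.0166). Neither passed on clone averages or without clone 8-3 or 12-3 (limma, adjusted p up to 0.234 for Mvd and 0.216 for Cyp51 over all alternatives). The Mvd call ended without any one of 5 arrays (KO/mock 8-3 replicate 1, KO/mock 8-4 replicate 2, both of KO/ERRb-wt 12-1 and KO/ERRb-wt 12-3 replicate 2; up to 0.0774) and the Cyp51 call without any one of 3 (both of KO/mock 8-3 and KO/ERRb-wt 12-3 replicate 2; up to 0.0512).

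**Figure D3:**
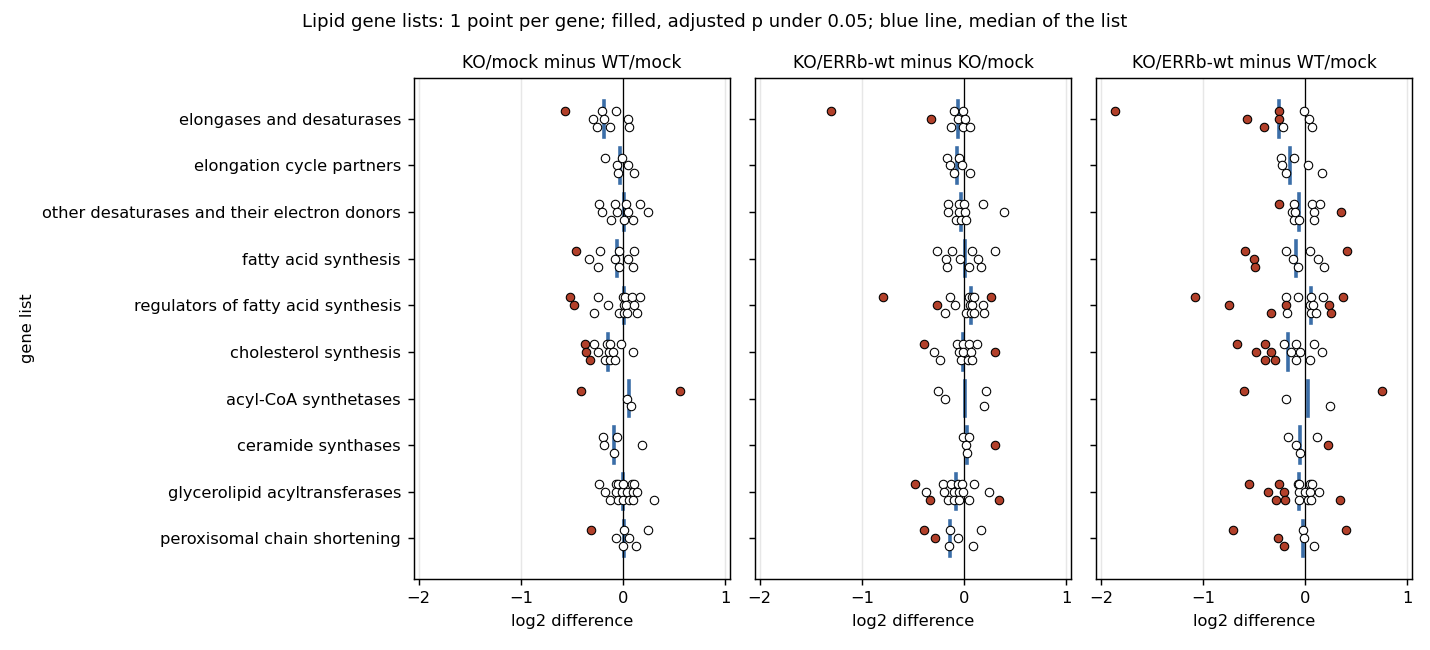
Log2 differences (horizontal axis) of the measured members and of the genes in 9 further lipid lists (rows) in the 3 comparisons; each point is a gene, filled where the adjusted p was under 0.05, and the blue line is the median of the list. In the right panel cholesterol synthesis has 6 filled points, all below 0, elongation cycle partners have none, and Elovl7 at -1.86 is the point farthest from 0. Of all genes, 20.8% were called in that comparison.

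Enzymes that activate or use the products were called in both directions. Acsl5, an acyl-CoA synthetase, read 7.70 to 7.86 on KO/ERRb-wt arrays, 7.44 to 7.71 on KO/mock arrays and 6.88 to 7.28 on WT/mock arrays, while its relative Acsl6 read 5.90 to 6.25, 6.19 to 6.52 and 6.58 to 6.87. Against WT/mock, Acsl5 rose by 0.75 ± 0.09 in KO/ERRb-wt cells (SE; limma, adjusted p = 0.000267) and by 0.55 ± 0.09 in KO/mock cells (0.00573), and Acsl6 fell by 0.595 ± 0.10 (0.00205) and 0.41 ± 0.10 (0.0483). The Acsl6 call in KO/mock cells ended without any one of 9 arrays, that is all but WT/mock 5-5 replicate 1, KO/mock 8-3 replicate 2 and KO/ERRb-wt 12-3 replicate 1 (adjusted p up to 0.146), and with the replicate block. Clone averages ended the call of Acsl5 in KO/mock cells (0.16), as did leaving out clone 5-2 or 8-3. They also ended the Acsl6 call in KO/ERRb-wt cells (0.054) and that in KO/mock cells. The latter ended under 17 of 27 alternatives (limma, adjusted p up to 0.356). The other 2 of 4 measured synthetases were not called in either comparison, and 0 of 4 were called in KO/ERRb-wt against KO/mock cells (limma; 1 at an unadjusted p under 0.05).

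Acox3, a peroxisomal oxidase that shortens chains, followed the order of Elovl7, at 6.92 to 7.06 on KO/ERRb-wt arrays, 7.31 to 7.45 on KO/mock arrays and 7.62 to 7.78 on WT/mock arrays. It fell by 0.70 ± 0.06 in KO/ERRb-wt against WT/mock cells (SE; limma, adjusted p = 3.26e-05), under every alternative run. KO/mock cells differed from WT/mock cells by -0.31 ± 0.06 (limma, adjusted p = 0.0171). KO/ERRb-wt cells differed from KO/mock cells by -0.39 ± 0.06 (0.00893). The first of these calls ended on clone averages (0.264) and without either array of WT/mock 5-2 or of KO/mock 8-4 (up to 0.0613), and the other on clone averages (0.195) and without clone 8-3 or 12-3. Of the 7 measured peroxisomal genes 1 was called higher and 3 lower in KO/ERRb-wt against WT/mock cells, where 8.82% and 12% of all genes were. Besides Acox3 these were the thiolase gene Acaa1b at 0.40, Scp2 at -0.27 and Hsd17b4 at -0.21 (limma, adjusted p = 0.0048, 0.00919 and 0.0236). Acaa1b had a mean level under 6. The Hsd17b4 call ended under 10 of 27 alternatives, among them clone averages (limma, adjusted p up to 0.149 over all alternatives). Scp2 did not pass on clone averages (0.0868), and Hsd17b4 ended without any one of 4 arrays (WT/mock 5-2 replicate 2, WT/mock 5-5 replicate 1, KO/ERRb-wt 12-1 replicate 1 and KO/ERRb-wt 12-3 replicate 2; up to 0.0625). Scp2 was also called against KO/mock, at -0.28 (0.0283), and that call ended without any one of 6 arrays: both of KO/mock 8-3, KO/mock 8-4 replicate 2, KO/ERRb-wt 12-1 replicate 2 and both of KO/ERRb-wt 12-3 (up to 0.0743). Clone averages ended it too, as did leaving out clone 8-3, 8-4, 12-1 or 12-3 (limma, adjusted p up to 0.219 over all alternatives).

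Of 18 glycerolipid acyltransferases and related enzymes, 1 was called higher and 6 lower in KO/ERRb-wt against WT/mock cells, with a median difference of -0.06. The shares over all genes were 8.82% higher and 12% lower. Agpat3 fell by 0.55 ± 0.08 (SE; limma, adjusted p = 0.000738), Lpcat3, which places polyunsaturated chains in phospholipids, by 0.28 ± 0.055 (0.00447), and the phosphatidate phosphatase gene Lpin2 by 0.37 ± 0.08 (0.00684), while Lpin1 rose by 0.34 ± 0.07 (0.00649). Agpat3 passed under every alternative run, and the other 3 did not pass on clone averages (0.0793 to 0.104). Without clone 5-2 the calls of Lpcat3 and Lpin2 ended, and without clone 12-1 those of Lpin1 and Lpin2. The other 3 lower calls, named after their values were seen, were lysophospholipid acyltransferase genes: Lpcat4 at -0.19 ± 0.05, Mboat2 at -0.25 ± 0.08 and Mboat7 at -0.21 ± 0.06 (SE; limma, adjusted p = 0.019, 0.042 and 0.0337). The Lpcat4 call ended under 6 of 27 alternatives: clone averages, quantile normalization, and without clone 5-2, 5-5, 12-1 or 12-3. The Mboat2 call ended under 14, among them the replicate block and the removal of any one of 6 arrays (both of KO/ERRb-wt 12-1, KO/ERRb-wt 12-3 replicate 1, both of WT/mock 5-2 and WT/mock 5-5 replicate 1; up to 0.115). The Mboat7 call ended under 13, among them the removal of any one of 6 arrays (both of KO/ERRb-wt 12-1, KO/ERRb-wt 12-3 replicate 1, WT/mock 5-2 replicate 2 and both of WT/mock 5-5; up to 0.0887). The Mboat2 and Mboat7 calls also ended on clone averages (limma, adjusted p up to 0.218 and 0.206 over all alternatives). Against KO/mock, KO/ERRb-wt cells had less Agpat3 and Lpcat4, at -0.48 and -0.33 (adjusted p = 0.00995 and 0.00565), and more Lpin1, at 0.34 (0.0254). None of these 3 passed on clone averages or without clone 8-3, and the Lpin1 call ended without any one of 6 arrays (both of KO/mock 8-3, KO/mock 8-4 replicate 2, both of KO/ERRb-wt 12-1 and KO/ERRb-wt 12-3 replicate 1; up to 0.0692). In KO/mock against WT/mock cells 0 of 18 were called (limma; 5 at an unadjusted p under 0.05). Of 5 measured ceramide synthases, which use very long chains, Cers6 was called higher in KO/ERRb-wt against WT/mock cells, at 0.23 ± 0.05 (adjusted p = 0.0119), which did not pass on clone averages (0.12) or without clone 5-2 or 12-1. Cers4 was called against KO/mock, at 0.30 (adjusted p = 0.0497), and leaving out any one of the 12 arrays ended that call (up to 0.118). Clone averages ended it as well (limma, adjusted p up to 0.25 over all alternatives). In KO/mock against WT/mock cells 0 of 5 were called (limma; 3 unadjusted).

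The genes most like Elovl7 over the 12 arrays were sought among 9124 protein-coding genes with a mean level of at least 6, as a description with no test. The 5 highest Pearson correlations were those of Mme, a membrane peptidase, at 0.992, the pluripotency factor Nanog at 0.990, Dusp9, a phosphatase of MAP kinases, at 0.989, Strbp at 0.989 and the T-box factor Tbx3 at 0.988. The 3 lowest were those of Scap at -0.985, the protein disulfide isomerase gene P4hb at -0.984 and Smarca2 at -0.981. All 12 points share 3 group levels, and with group means taken out the correlations were 0.871 for Mme, 0.795 for Nanog, 0.951 for Dusp9, 0.692 for Strbp and 0.606 for Tbx3. For Scap, P4hb and Smarca2 they were then -0.545, -0.658 and -0.714, so Scap was the least opposed of the 3. Among the members, Scd1 was closest to Elovl7, at 0.956 over the arrays and 0.617 with group means taken out, followed by Elovl5 at 0.887 and 0.755. Elovl2 and Fads2 were at -0.264 and -0.513.

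**Figure D4:**
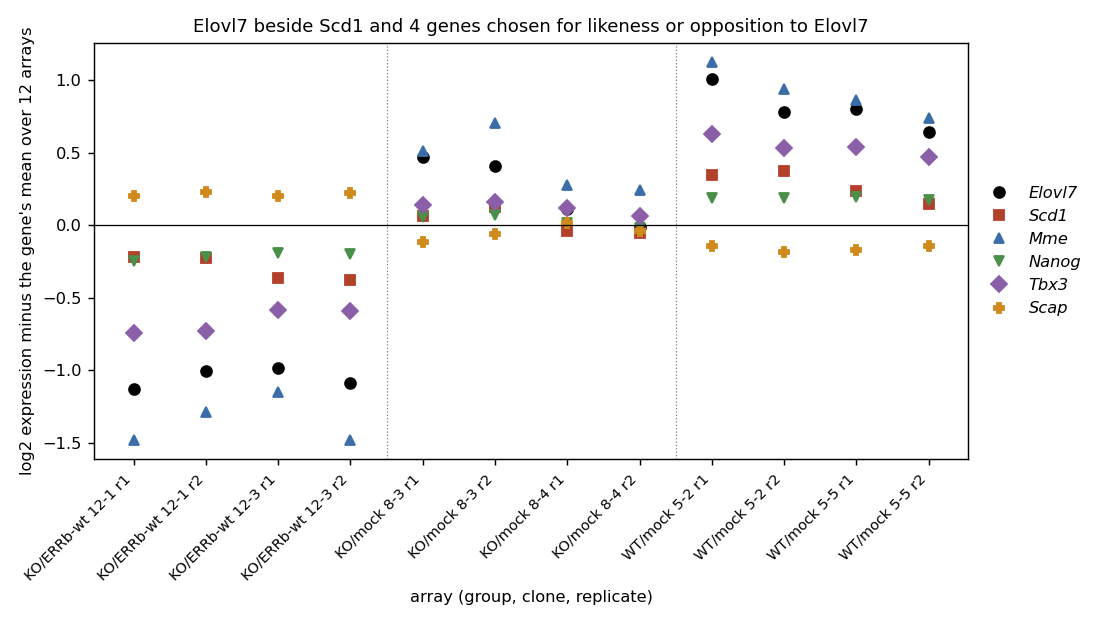
Log2 expression minus the gene's own mean over 12 arrays (vertical axis) on each array (horizontal axis, in groups from KO/ERRb-wt to WT/mock) for Elovl7, Scd1, 3 of the genes most correlated with Elovl7 and Scap, the gene with the lowest correlation. Mme and Elovl7 run over similar ranges, with Mme group means of 5.90, 7.69 and 8.17 in KO/ERRb-wt, KO/mock and WT/mock cells, while Scap runs the other way, with means of 8.6, 8.34 and 8.23.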

How the data were processed

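RNA of 12 samples was labelled with a whole-transcript kit and read on MoGene 2.0 ST arrays, 1 per sample, per the labels. The deposited log2 expression values ran from 1.59 to 13.6. The submitters' processing notes name RMA and Affymetrix Expression Console, without versions, as what the authors used. RMA brings arrays to a common distribution, so a shift shared by most genes would not show, and no detection calls were used. Precision is limited by how few arrays and clones there are.

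Gene names came from the platform annotation: 23521 of 41345 probe sets had 1 symbol, 1814 several and 16010 none. A gene was taken by its 1-symbol probe set with the highest mean. All arrays entered one fit with limma 3.58.1 (R 4.3.3), in which group was the term and clone a random block through statmod 1.5.0 (correlation 0.0286). Tests were two-sided, with Benjamini-Hochberg adjustment over all probe sets. Clones of a label were compared in a model with 6 clones as groups. P-values treat the arrays of a clone as nearly independent. The code was tested on simulated data.

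The members, the lists and the rule for named genes (all members, Esrrb, up to 4 called genes per lipid list and comparison, and the 5 highest and 3 lowest correlations with Elovl7) were chosen with earlier results of these data known. Called genes of a lipid list beyond the first 4 were named after their values were seen. Lists were the ones described in the report and 5 marker lists. Promoter windows came from RefSeq (GRCm38.p6). Alternatives were no clone block, clone averages, a replicate block, only the compared groups, quantile normalization, median centring, dim probe sets left out, array weights, a trended robust prior, and leaving out each array or clone.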

Additional observations from a re-analysis of the deposited data

Results flagged for a closer look

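Elovl5 read 10.62 on KO/ERRb-wt 12-3 replicate 1, while the other 3 KO/ERRb-wt arrays read 10.46 to 10.47. This array stood apart from its group by Dixon's test at the 95% level, 1 of 30 gene-by-group sets tested over the 9 members and Esrrb; chance flags about 1 in 20.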

How the results depend on the processing

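Each of Elovl1, Elovl4, Elovl5, Elovl6, Elovl7 and Scd1 stayed below 0 against WT/mock, in KO/mock and in KO/ERRb-wt cells, under all 27 alternatives, and no member's call reversed. The members called for KO/mock against WT/mock numbered 1 as reported (Elovl7), 0 on clone averages (limma; 2 at an unadjusted p under 0.05), 0 without clone 5-2 or without clone 8-4 (3 unadjusted in each), 4 with dim probe sets left out, 3 with a trended robust prior or without clone 5-5, and 0 to 2 with single arrays left out. Calls over all probe sets rose in the same 3 settings, to 2284 of 14610, 2292 and 1843 against 1602. For KO/ERRb-wt against KO/mock they numbered 2, then 0 on clone averages (limma; 2 at an unadjusted p under 0.05), 1 with the replicate block, with only the compared groups, or without clone 8-3, 8-4, 12-1 or 12-3, and 1 to 2 with single arrays left out; the call lost was that of Scd1 under 14 of 27 alternatives and that of Elovl7 on clone averages. For KO/ERRb-wt against WT/mock they numbered 5, then 3 on clone averages and 2 without clone 5-2, with 4 to 6 over single arrays. Over all probe sets the calls were 1602, 1329 and 6460 in these comparisons. With clone averages they were 10, 0 (6124 unadjusted) and 2251, where 2 clones stand against 2. KO/mock against WT/mock gave 531 without clone 5-2, 560 without clone 8-4 and 888 to 1841 over single arrays. KO/ERRb-wt against KO/mock gave 777 with only the compared groups, 145 without clone 8-3, 761 without clone 12-1, 333 without clone 12-3 and 544 to 1399 over single arrays; the share called higher was 30.4% as deposited, 42.2% with quantile normalization and 21.5% with median centring, and against WT/mock it was 44%, 48% and 34.4%. KO/ERRb-wt against WT/mock gave 3245 without clone 5-2, 3931 without clone 12-3 and 4822 to 6526 over single arrays. Apart from the settings that drop arrays or average them, the cause of these changes was not tested. With the replicate number as a block (replicate block), 1365, 973 and 6011 probe sets were called. The labels do not state whether numbers 1 and 2 mark a shared culture or day, and the difference between the arrays of a clone correlated between clones at -0.043 to 0.141, over 0.1 in 1 of 15 pairs. The levels of Elovl3 and other dim genes cannot be set against background. Of the planned settings, other 1-symbol probe sets of a member could not be tried, because each member had 1. No member was called between clones of a label under any setting run for that comparison.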
